A study of Mus musculus with 2 samples.

Results

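The subject is 9 guanylate-binding protein genes, Gbp2, Gbp3, Gbp4, Gbp5, Gbp6, Gbp7, Gbp8, Gbp9 and Gbp10, taken by symbol from the 32286 features counted in both libraries. All 9 were found, each in 1 row. The family was chosen by the difference in its UMI counts between the 2 libraries in earlier results from the same files, so every difference between the libraries below is a description and carries no test. The libraries came from the optic cup of mice labelled Abca4KO, which lack the photoreceptor transporter whose loss is used as a model of Stargardt disease. The control library is labelled AAV2.8-GFP and the other AAV2.8-Sponge.mir181, a vector carrying decoy binding sites for miR-181a and miR-181b. All mice carried the knockout and all eyes compared were injected, with 1 vector in 1 eye and the other vector in its partner. The vectors were injected under the retina at 2 months of age and tissue was taken 4 months later by the series text, while the labels of both samples state 4 months as the age. Each group held 1 library, and the number of mice, the promoter of either vector and whether the sponge vector also carries eGFP are not given in the sources used here. What is compared is the injected eye with the sponge vector and with the GFP vector.

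Guanylate-binding proteins are large GTPases that coat vacuoles and the surface of intracellular microbes, and help to open them to the cytosolic sensors that trigger inflammasomes. Their genes are among the most strongly induced targets of interferon-gamma, which acts through JAK kinases and the factor IRF1, and many also respond to type I interferon. In the eye, interferon from infiltrating lymphocytes is known to act on microglia, Müller glia, endothelium and the retinal pigment epithelium (RPE).

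The mouse genes lie in 2 clusters (mm10). The 4 genes on chromosome 3 are on the + strand: Gbp5 at 142493978 to 142522344, Gbp7 at 142530342 to 142550149, Gbp3 at 142560026 to 142573209 and Gbp2 at 142620602 to 142638008. The 5 genes on chromosome 5 are on the - strand: Gbp8 at 105014150 to 105139540, Gbp9 at 105077630 to 105139539, Gbp4 at 105115767 to 105139586, Gbp10 at 105215699 to 105239533 and Gbp6 at 105270702 to 105293698. All are annotated as protein coding. Gbp4, Gbp8 and Gbp9 overlap on the same strand. Over the last 500 bases of the longest transcript, where 3' reads fall, 93.4% of the 31-base words of Gbp10 also occur in Gbp6 and 86.8% of those of Gbp6 occur in Gbp10. The split of reads between Gbp6 and Gbp10 is therefore uncertain. The share was 10.6% for Gbp4, 4.89% for Gbp8, 1.91% for Gbp9 and 0 for the 4 genes on chromosome 3.

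The RefSeq promoter table (GRCm38.p6) held 4 of the 9 members, all on chromosome 3. Their 250 bases before the start site are shown because the family is a known target of interferon. Gbp2, Gbp3 and Gbp7 were higher together in several cell classes below. Gbp5 departed from them in many classes, with the lowest ratio of the family in 9 of the 14 classes with 5 or more members measured. It did not in RPE, at a log2 ratio of 2.62 against 2.49 for Gbp2, or in cluster 15, at 0.39 against 0.39 for Gbp3. Capitals mark matches, on either strand, to the interferon-gamma-activated site TTCNNNGAA or to the interferon-stimulated response element core, GAAA, any 2 bases and GAAA (TTTC, any 2 bases and TTTC on the opposite strand).
Gbp2 (chr3:142620413-142620662, + strand): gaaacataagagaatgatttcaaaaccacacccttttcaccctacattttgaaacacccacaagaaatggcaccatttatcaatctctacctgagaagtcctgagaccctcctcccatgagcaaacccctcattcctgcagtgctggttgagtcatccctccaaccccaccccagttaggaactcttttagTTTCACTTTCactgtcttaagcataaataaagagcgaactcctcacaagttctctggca
Gbp3 (chr3:142559794-142560043, + strand): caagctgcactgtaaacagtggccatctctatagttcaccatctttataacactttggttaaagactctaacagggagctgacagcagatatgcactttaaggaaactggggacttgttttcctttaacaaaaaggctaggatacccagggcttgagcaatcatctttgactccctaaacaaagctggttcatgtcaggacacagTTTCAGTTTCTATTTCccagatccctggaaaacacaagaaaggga
Gbp5 (chr3:142496684-142496933, + strand): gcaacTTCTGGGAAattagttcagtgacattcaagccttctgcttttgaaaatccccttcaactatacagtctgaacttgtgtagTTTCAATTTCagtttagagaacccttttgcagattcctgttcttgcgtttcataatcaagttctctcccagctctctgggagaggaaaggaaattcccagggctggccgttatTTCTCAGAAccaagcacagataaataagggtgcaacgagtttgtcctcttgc
Gbp7 (chr3:142530086-142530335, + strand): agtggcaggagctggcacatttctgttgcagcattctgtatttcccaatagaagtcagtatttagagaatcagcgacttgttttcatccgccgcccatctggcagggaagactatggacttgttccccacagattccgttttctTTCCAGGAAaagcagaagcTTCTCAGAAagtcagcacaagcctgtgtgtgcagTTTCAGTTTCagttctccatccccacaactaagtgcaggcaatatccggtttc
Each of the 4 held the response element core, starting at -59 in Gbp2, at -45 and -39 (overlapping) in Gbp3, at -165 in Gbp5 and at -53 in Gbp7. Gbp5 also held the activated site at -245 and -52, and Gbp7 at -106 and -87. A further start of Gbp3 in the table held neither. Over the same 250-base windows of all 32851 promoters in the table, 2.98% held the core, 7.02% the activated site and 0.332% both. A match describes the letters only.

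The sponge is directed at miR-181a and miR-181b, whose mature sequences (RefSeq, GRCm38.p6) are shown with the seed, bases 2 to 8, in capitals.
mmu-miR-181a-5p: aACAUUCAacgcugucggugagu
mmu-miR-181b-5p: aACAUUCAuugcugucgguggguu
Both share 1 seed. Its complement, TGAATGT, was in the annotated 3' untranslated region of 0 of the 9 members, and of 3637 of 21042 genes (17.3%).

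After filtering, 39285 cells labelled GFP (median depth 2415 UMIs) and 23200 cells labelled sponge (median depth 2980.5 UMIs) were analysed. The total counts were 123040365 and 132067896 UMIs. The eGFP feature had 12 UMIs in the library labelled GFP against 5484 in the library labelled sponge, which goes against the labels, so each direction below rests on labels that eGFP does not bear out. The libraries shared 290 barcodes. Cells fell into 28 clusters, and 15 classes or numbered clusters are described. The members and the interferon gene lists were left out of the genes used for clustering. Class names mean that a cluster resembled the class by its markers. Although the tissue is labelled optic cup, 1054 and 422 cells resembled ocular surface epithelium. Cells outside the 15 were 28.0% of the library labelled GFP and 31.7% of the library labelled sponge. Levels are CPM, the UMIs of a gene per 1000000 UMIs of the class in that library. Intervals are 95% and cover counting error alone, not the spread between mice or eyes, and UMIs within 1 cell are not independent draws.

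In the library labelled GFP the summed level of the 9 members was highest in cluster 15, at 363 CPM (349 to 377). Cluster 15 was led by Gpnmb, Grem1, Mlana and Acta2 and was kept apart from the melanocytes after its genes had been seen. Endothelial cells followed at 319 CPM (301 to 339). Fibroblasts at 212 CPM (203 to 222) and cluster 19, which resembled Müller glia, at 201 CPM (186 to 216) had overlapping intervals. Ocular surface epithelium (140), T and NK cells (128), melanocytes (126) and the microglia and macrophages (123) each overlapped the next in that order. RPE stood at 105 CPM (97.9 to 112), the ninth of the 15, and overlapped the pericytes at 94.1 CPM. Neurons were lowest, with amacrine cells at 51.0 CPM, rods at 46.0, cones at 37.5 and bipolar cells at 31.5.

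In the library labelled sponge RPE moved to the first rank, at 1222 CPM (1197 to 1248), and cluster 19 to the second, at 940 CPM (923 to 958). Cluster 15 at 470 CPM (460 to 481) and endothelial cells at 452 CPM (430 to 474) overlapped, and fibroblasts were at 424 CPM (407 to 442). Bipolar cells stayed lowest, at 42.3 CPM (39.5 to 45.3). The summed level was higher in the library labelled sponge, with an interval above 0 on the log2 scale, in 14 of 15 classes, and at least 2-fold higher in 4 of them, RPE, cluster 19, melanocytes and amacrine cells. Ocular surface epithelium was the exception, at 140 CPM (132 to 149) and 115 CPM (109 to 121), and its log2 ratio of -0.29 became 0.03 under median-of-ratios scaling. There the median over all genes measured was -0.36, against -0.05 under that scaling. Under scaling by the total, such medians also lay more than 0.1 from 0 in RPE (-0.20), microglia and macrophages (-0.11) and cluster 15 (-0.11).

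**Figure D1:**
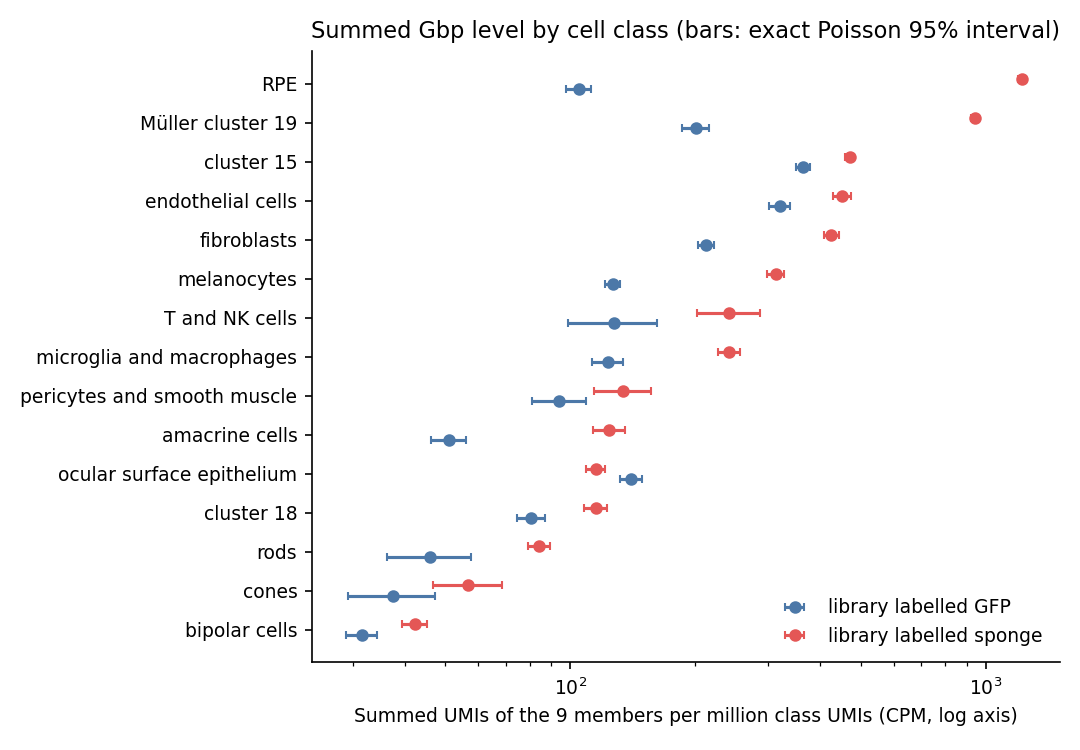
Summed UMIs of the 9 members per 1000000 UMIs of each cell class (CPM, log axis) in the library labelled GFP (blue) and the library labelled sponge (red), with exact Poisson 95% intervals and 1 library per group. RPE goes from 105 to 1222 CPM and Müller cluster 19 from 201 to 940 CPM, while ocular surface epithelium is lower in the library labelled sponge.

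RPE cells form the pigmented layer behind the photoreceptors, which a subretinal injection reaches directly. The class held 1036 cells labelled GFP and 514 labelled sponge, with medians of 6423.5 and 3223 UMIs, and 10 of 11 RPE markers stood at least 2-fold above the median cluster. The summed Gbp level was 11.6-fold higher in the library labelled sponge (10.8 to 12.5), a log2 ratio of 3.54 (3.44 to 3.65). This is the ratio of the whole class, which pools 2 sub-clusters, given below, in unlike proportions in the libraries. All 9 members were at least 2-fold higher, where 2.25% of the 14815 genes measured in RPE were. The members' log2 ratios had a median of 3.49 and ran from 2.49 to 5.18, whereas the median over all genes was -0.20.

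On chromosome 5, Gbp4 had 59 UMIs in RPE labelled GFP and 1988 in RPE labelled sponge, or 7.64 CPM (5.81 to 9.85) and 279 CPM (267 to 292), a log2 ratio of 5.18 (4.82 to 5.59). Gbp10 had 11 and 379 UMIs, or 1.42 and 53.2 CPM, a log2 ratio of 5.16 (4.37 to 6.24). Gbp8 went from 6.08 to 103 CPM, a log2 ratio of 4.06 (3.65 to 4.53). These 3 members had the largest ratios of the family in RPE. Gbp6 had 115 and 1564 UMIs, or 14.9 and 219 CPM, a log2 ratio of 3.88 (3.61 to 4.17), and it shares its 3' sequence with Gbp10. Gbp9 had only 7 UMIs against 77, a log2 ratio of 3.49 (2.46 to 4.94).

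The members on chromosome 3 were higher by smaller ratios in RPE. Gbp7, which has been tied to oxidative killing and autophagy in macrophages, had 281 and 2158 UMIs, or 36.4 CPM (32.2 to 40.9) and 303 CPM (290.2 to 316), a log2 ratio of 3.06 (2.88 to 3.24). Gbp3 went from 23.7 to 172 CPM, a log2 ratio of 2.86 (2.64 to 3.09). Gbp5, known as a promoter of inflammasome assembly, went from 5.18 to 32.1 CPM, a log2 ratio of 2.62 (2.14 to 3.16). Gbp2, which is recruited to pathogen-containing vacuoles, went from 8.80 to 49.8 CPM, a log2 ratio of 2.49 (2.12 to 2.90). No interval of a chromosome 3 member reached the lower bound of Gbp4, Gbp6, Gbp8 or Gbp10. Outside the 9, the neighbouring family member Gbp2b went from 26.9 to 169 CPM, a log2 ratio of 2.64 (2.43 to 2.87).

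A large part of the family's UMIs in RPE came from few, deep cells. In the library labelled sponge 11 of 514 RPE cells (2.14%), with a median of 50165 UMIs each, held 50% of the 8708 family UMIs, and the highest cell held 812. In the library labelled GFP 38 of 1036 cells held 50% of 811 family UMIs. The library labelled sponge was higher in each depth range. Cells under 2000 UMIs had 28.0 CPM (9.09 to 65.3, 126 cells) and 281 CPM (221 to 353, 177 cells). Cells of 2000 to under 10000 UMIs had 88.8 CPM (79.5 to 98.9, 647 cells) and 340 CPM (297 to 388, 164 cells), and cells of 10000 UMIs or more had 124 CPM (113 to 136, 263 cells) and 1355 CPM (1326 to 1384, 173 cells). With each cell weighted equally the log2 ratio was 2.78 in place of 3.54, and without the 10% of cells with the most UMIs it was 3.24.

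Markers of other cells were followed in RPE. The list for microglia and macrophages summed to 354 CPM in the library labelled GFP and 1372 CPM in the library labelled sponge, with all 17 markers detected. Without Cd74 and H2-Aa, the class II antigen presentation genes on it, the other 15 summed to 256 and 219 CPM. The pan-leukocyte gene Ptprc was at 4.53 and 1.26 CPM. The T and NK list of 11 genes summed to 8.02 and 12.1 CPM, with Cd4 at 0 in the library labelled GFP and Trac at 0 in the library labelled sponge. The erythrocyte list summed to 62.8 and 566 CPM and the rod list to 3748 and 2215 CPM, so haemoglobin moved with the result, and its part in it was not tested. The RPE list itself summed to 50145 and 72223 CPM.

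Cluster 19 had all 12 Müller glia markers at least 2-fold above the median cluster, but its leading genes were Ccn1, Inhba, Fas, Maff and Btg2, early response genes among them, and no marker was in its top 10. Müller glia span the retina and support its neurons. The cluster had 917 and 1068 cells, with medians of 3330 and 10504.5 UMIs. The summed Gbp level was 4.68-fold higher in the library labelled sponge (4.34 to 5.07), a log2 ratio of 2.23 (2.12 to 2.34). Most of this lay in sub-cluster 43 of the finer clustering, with 6 and 288 cells, whereas the 866 and 746 cells of sub-cluster 18 had 192 and 218 CPM. Over the whole cluster, at least 2-fold higher were 8 of 9 members, where 3.58% of the 15085 genes measured there were. Gbp4 went from 10.5 CPM (7.39 to 14.6) to 114 CPM (108 to 120.4), a log2 ratio of 3.42 (2.96 to 3.95). Gbp10 went from 4.10 to 38.9 CPM, Gbp8 from 9.67 to 81.9 and Gbp6 from 28.7 to 177, log2 ratios of 3.20, 3.06 and 2.62. Gbp9, Gbp7, Gbp2 and Gbp3 had log2 ratios of 2.18, 2.15, 1.93 and 1.67.

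Gbp5 was the member of cluster 19 below 2-fold, at 29.0 CPM (23.6 to 35.3) and 47.0 CPM (43.2 to 51.1), a log2 ratio of 0.69 (0.39 to 1.02). The lowest interval bound among the other 8 members was 1.32, that of Gbp3. Gbp2b went from 67.7 to 279 CPM, a log2 ratio of 2.04 (1.85 to 2.24). The list for microglia and macrophages in cluster 19 summed to 241 and 520 CPM, and to 216 and 194 CPM without Cd74 and H2-Aa. Its T and NK list summed to 2.93 and 4.73 CPM and its erythrocyte list to 122 and 289 CPM. Only 4 cells of cluster 19 in the library labelled GFP had 10000 UMIs or more, against 614 in the library labelled sponge. At 2000 to under 10000 UMIs the summed level was 200 CPM (185 to 216, 855 cells) and 570 CPM (545 to 597, 449 cells).

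The immune and vascular classes differed less. In the microglia and macrophages, the resident phagocytes of retina and eye wall, the summed level went from 123 CPM (113 to 134) to 241 CPM (226 to 257), a log2 ratio of 0.97 (0.82 to 1.12). At least 2-fold higher were 4 of 9 members, where 4.76% of genes measured there were: Gbp2, Gbp4, Gbp8 and Gbp10. Gbp8 stood apart, from 20 UMIs (4.56 CPM) to 93 UMIs (22.6 CPM), a log2 ratio of 2.28 (1.60 to 3.08). The intervals of Gbp9 and Gbp10 included 0. In this class the list for B and plasma cells, whose immunoglobulin RNA is abundant, summed to 405 and 20661 CPM, so plasma cell RNA moved with the result and its part in it was not tested. At the finer resolution the class held 1041 and 332 cells and the log2 ratio was 1.05.

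Endothelial cells, which line the vessels, went from 319 to 452 CPM in sum, a log2 ratio of 0.50 (0.39 to 0.61). They had the most Gbp4, Gbp5, Gbp8 and Gbp9 of any class in the library labelled GFP, at 62.0, 48.6, 18.4 and 13.8 CPM. Of 8 members measured, 1 was at least 2-fold higher, where 4.49% of genes there were: Gbp9, from 47 UMIs (13.8 CPM) to 130 UMIs (35.7 CPM), a log2 ratio of 1.37 (0.88 to 1.89). The intervals of Gbp2, Gbp5 and Gbp6 included 0. In cluster 15, highest of the classes labelled GFP, 0 of 9 members were at least 2-fold higher, where 2.32% of genes there were. Its log2 ratios ran from -0.37 for Gbp10 to 0.71 for Gbp8.

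In fibroblasts 6 of 9 members were at least 2-fold higher, where 6.25% of genes there were, and the sum went from 212 to 424 CPM, a log2 ratio of 0.999 (0.91 to 1.09). Under median-of-ratios scaling the count was 4 of 9, since Gbp3 and Gbp7 went from 1.03 and 1.02 to 0.98 and 0.97. In melanocytes 7 of 9 were, against 3.87% of genes, and the sum went from 126 to 312 CPM, a log2 ratio of 1.30 (1.21 to 1.39). Gbp10 led there with 27 and 51 UMIs, a log2 ratio of 2.47 (1.78 to 3.21). Amacrine cells, inhibitory interneurons, had 6 of 9, against 2.79% of genes, and went from 51.0 CPM (46.2 to 56.1) to 124 CPM (114 to 135). Gbp10 and Gbp4 had the largest ratios there, 2.97 (1.63 to 4.83) and 2.76 (2.13 to 3.47). In rods 3 of 9 were, against 3.63% of genes, and in bipolar cells 2 of 9, against 1.2%. Rods had 1 UMI each of Gbp9 and Gbp10 in the library labelled GFP.

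Cluster 18 had 11 of 12 Müller glia markers at least 2-fold above the median cluster but was led by Rgs6, Unc5c and Abca8b, with more ciliary epithelium than Müller markers among its top 10 genes, so it was kept by number (it is not sub-cluster 18 below). Its 2961 and 1163 cells had a summed level of 80.6 CPM (74.4 to 87.1) and 115 CPM (108 to 122.5), a log2 ratio of 0.51 (0.37 to 0.66). There 1 of 9 members was at least 2-fold higher, where 1.92% of genes were: Gbp10, on 6 and 18 UMIs. Gbp4, the member of largest ratio in cluster 19, went from 3.66 to 6.35 CPM, a log2 ratio of 0.78 (0.12 to 1.50).

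In ocular surface epithelium 0 of 8 members measured were at least 2-fold higher, where 3.6% of genes were. Gbp4 and Gbp8 had the highest log2 ratios there, 0.34 and 0.35, and Gbp6 stood at -0.89 (-1.34 to -0.43).

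Counts in the smaller classes were low. Cones had 70 and 109 family UMIs, or 37.5 and 56.9 CPM, and 3 of 5 members measured were at least 2-fold higher, where 3.38% of genes were: Gbp2, Gbp3 and Gbp4, each on 20 UMIs or fewer per library. Pericytes and smooth muscle went from 94.1 to 134 CPM in sum, with 0 of 6 measured members at least 2-fold higher, where 6.47% of genes were, and all 6 intervals included 0. T and NK cells, with 186 and 92 cells, had 66 and 132 family UMIs, or 128 CPM (98.6 to 162) and 241 CPM (202 to 286), and only Gbp4, Gbp6 and Gbp7 reached the 20 UMIs needed. Of these, Gbp4 was at least 2-fold higher, where 10% of genes there were. Over the 15 classes and 9 members, 15 of 135 values were below 20 UMIs.

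**Figure D2:**
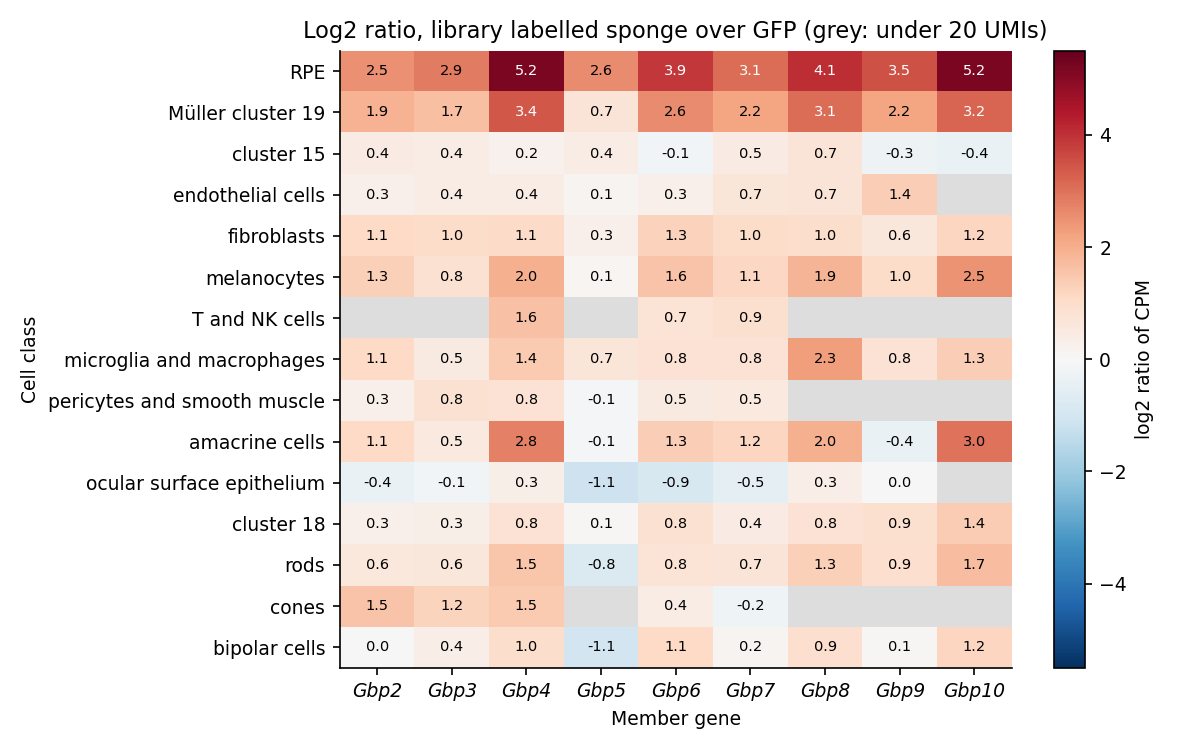
Log2 ratio of CPM, library labelled sponge over library labelled GFP, for each member (columns) in each class (rows, ordered by summed level in the library labelled sponge), with grey where fewer than 20 UMIs were counted. RPE runs from 2.49 for Gbp2 to 5.18 for Gbp4, and Gbp5 is the lowest measured member in 9 of the 14 classes with 5 or more members measured.

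Read by member, Gbp4 was above 0 in 15 of 15 classes, with an interval above 0 in 13 and a median log2 ratio of 1.45. Gbp10 reached 2-fold in 9 of 10 classes where it was measured, with an interval above 0 in 7. It was the member of largest ratio in 5 of 14. Its intervals in rods (1 and 38 UMIs) and in microglia and macrophages (6 and 15 UMIs) included 0. The minimum count is taken over both libraries. Where Gbp10 had few UMIs labelled GFP, a class could thus be measured only through its UMIs labelled sponge, which favours high ratios. Gbp7 and Gbp6 were above 0 in 13 of 15 classes each and had medians of 0.70 and 0.77. Gbp5 reached 2-fold higher only in RPE, of 13 classes, and was at least 2-fold lower in ocular surface epithelium, where 22.5% of genes were, and in bipolar cells, where 6.78% were. In ocular surface epithelium its log2 ratio of -1.12 (-1.86 to -0.40) became -0.81 under median-of-ratios scaling, short of 2-fold. In bipolar cells it had 44 and 24 UMIs, or 2.58 CPM (1.87 to 3.46) and 1.23 CPM (0.79 to 1.84), a log2 ratio of -1.05 (-1.85 to -0.31). Its median log2 ratio over 13 classes was 0.09. RPE was the class of largest ratio for each of the 9 members.

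The make-up of the family differed accordingly. The 5 members on chromosome 5 gave 29.5% of family UMIs in RPE of the library labelled GFP (exact interval 26.3 to 32.7) and 54.4% in the library labelled sponge (53.4 to 55.5). In cluster 19 they gave 28.9% (25.5 to 32.5) and 46.3% (45.4 to 47.2). Endothelial cells had 34.6% (31.8 to 37.6) and 37.4% (35.0 to 39.8), which overlap. The share was higher in the library labelled sponge in 14 of 15 classes, with intervals apart in 8 of them. Cluster 15 went the other way, with 14.97% (13.6 to 16.4) and 11.2% (10.5 to 12.0). Gbp4 alone went from 7.27% to 22.8% of family UMIs in RPE and from 5.26% to 12.1% in cluster 19.

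**Figure D3:**
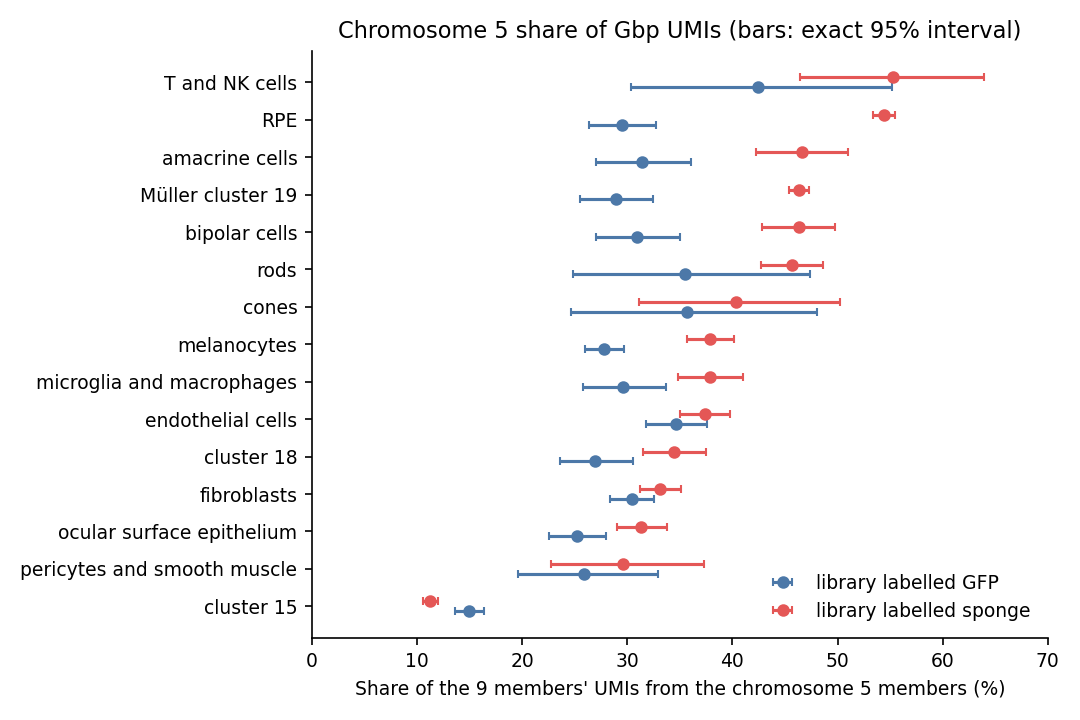
Share of the family's UMIs that came from the 5 chromosome 5 members (Gbp4, Gbp6, Gbp8, Gbp9 and Gbp10) in each class and library, with exact 95% binomial intervals. RPE goes from 29.5% to 54.4% and cluster 19 from 28.9% to 46.3%, while cluster 15 goes from 14.97% to 11.2%.

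Detection was compared with each cell thinned to 1000 UMIs, which left out 16 and 8 RPE cells. Any member was then seen in 5.98% of 1020 RPE cells of the library labelled GFP (4.61 to 7.62) and in 24.3% of 506 of the library labelled sponge (20.6 to 28.3). At least 2 members were seen in 1.27% (0.680 to 2.17) and 8.89% (6.56 to 11.7), and at least 4 in 0.0980% (0.00248 to 0.545) and 4.35% (2.74 to 6.51). Unthinned, at least 2 members were seen in 11.0% and 27.4%, at median depths of 6423.5 and 3223 UMIs. Rods, as neurons with little of the family, had at least 2 members in 0 of 807 thinned cells, which allows up to 0.372% of cells with UMIs of 2 members at this depth, a limit on detection and not on expression, and in 0.440% of 4770, at median depths of 1908.5 and 2443 UMIs before thinning. Gbp7 was seen in 2.94% and 11.3% of thinned RPE cells and Gbp6 in 0.784% and 7.91%. Gbp9, at 1 and 2 cells, was not distinguishable from 0 at this depth.

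In thinned cells of cluster 19, any member was seen in 16.1% (13.8 to 18.6) and 34.6% (31.8 to 37.6), and at least 2 in 2.08% (1.26 to 3.23) and 16.4% (14.2 to 18.8). Microglia and macrophages had at least 2 members in 1.52% (0.904 to 2.39) and 2.63% (1.54 to 4.17), which overlap, and endothelial cells in 4.32% (3.17 to 5.74) and 6.82% (4.51 to 9.84), which also overlap. At full depth all 9 members were seen together in 1 RPE cell of the library labelled GFP and 18 of the library labelled sponge, and in 0 and 37 cells of cluster 19.

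**Figure D4:**
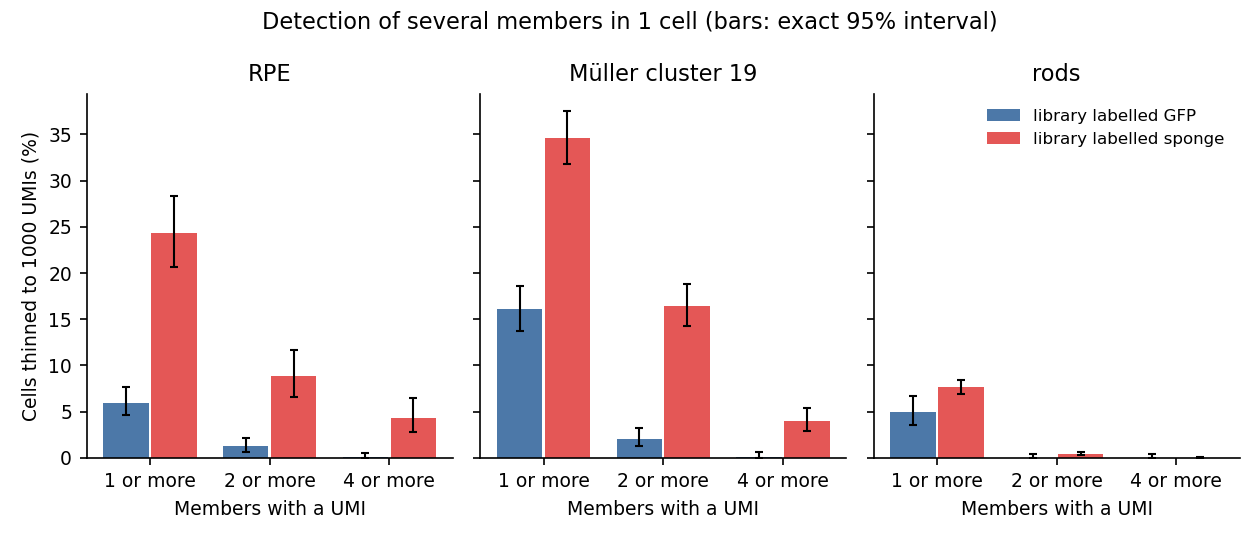
Share of cells with a UMI of at least 1, 2 or 4 of the 9 members after thinning each cell to 1000 UMIs, in RPE, Müller cluster 19 and rods, with exact 95% binomial intervals. At least 2 members are seen in 1.27% and 8.89% of RPE cells and in 0 of 807 and 0.440% of rods.

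The members were seen together in the same cells. In thinned RPE of the library labelled sponge, 17 of the 36 pairs were expected in at least 1 cell from the product of their shares, and all 17 were seen together more often than that product, by 3.30 to 6.81 times. In cluster 19 of the same library 33 pairs could be read and all 33 exceeded the product, by 1.56 to 5.80 times. Endothelial cells had 7 of 9 above it, from 0.866 to 2.72 times. The pattern was not particular to RPE and cluster 19. In the library labelled GFP fibroblasts had 17 of 17 pairs above the product, by 1.40 to 8.19 times, and cluster 15 had 11 of 11. In the library labelled sponge fibroblasts had 12 of 12, by 1.56 to 5.54 times, and cluster 15 had 10 of 11. In RPE of the library labelled GFP no pair could be read at this depth. The top 10% of thinned RPE cells held 75.8% of family UMIs in the library labelled sponge, where 75.7% of cells had none. In cluster 19 the top 10% held 60.2% and 65.4% had none. Cells that share a library share its depth and free RNA. RPE and cluster 19 each pool sub-clusters of unlike level, given below, and Gbp6 and Gbp10 share 3' sequence. These ratios are therefore descriptions.

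Clustering at resolution 2 split RPE into 2 parts. Sub-cluster 17 held 806 and 164 cells, most RPE of the library labelled GFP, and sub-cluster 25 held 193 and 350 cells, most RPE of the library labelled sponge. In sub-cluster 17 the summed level was 74.1 CPM (67.8 to 80.8) and 113 CPM (103 to 123). In sub-cluster 25 it was 594 CPM (524 to 669) and 3274 CPM (3203 to 3345), so the library labelled GFP also held RPE cells with a raised level. Gbp4 in sub-cluster 25 was at 95.6 and 781 CPM, and in sub-cluster 17 at 1.60 and 7.78 CPM. The RPE gene Rpe65 was at 4128 and 6899 CPM in sub-cluster 17 and at 1963 and 2827 CPM in sub-cluster 25. Median UMIs were 7399 and 24676.5 in sub-cluster 17, and 1723 and 1998 in sub-cluster 25. Although the members were not used to cluster, genes that vary with them were, so the gap between sub-clusters is no test.

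Cluster 19 split into sub-cluster 18, with 866 and 746 cells, and sub-cluster 43, with 6 and 288 cells. In sub-cluster 18 the summed level was 192 CPM (177 to 208) and 218 CPM (208 to 229), and Gbp5 was at 28.8 and 16.8 CPM. In sub-cluster 43 the library labelled sponge had 2562 CPM (2509 to 2615), with Gbp7 at 652, Gbp6 at 487, Gbp2 at 379 and Gbp4 at 342 CPM, and with Glul, the glutamine synthetase of Müller glia, at 4435 CPM. The 6 cells labelled GFP had 54 family UMIs, or 2672 CPM (2007 to 3486). The family UMIs of sub-cluster 43 in the library labelled sponge numbered 9123, of the 10941 in cluster 19.

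**Figure D5:**
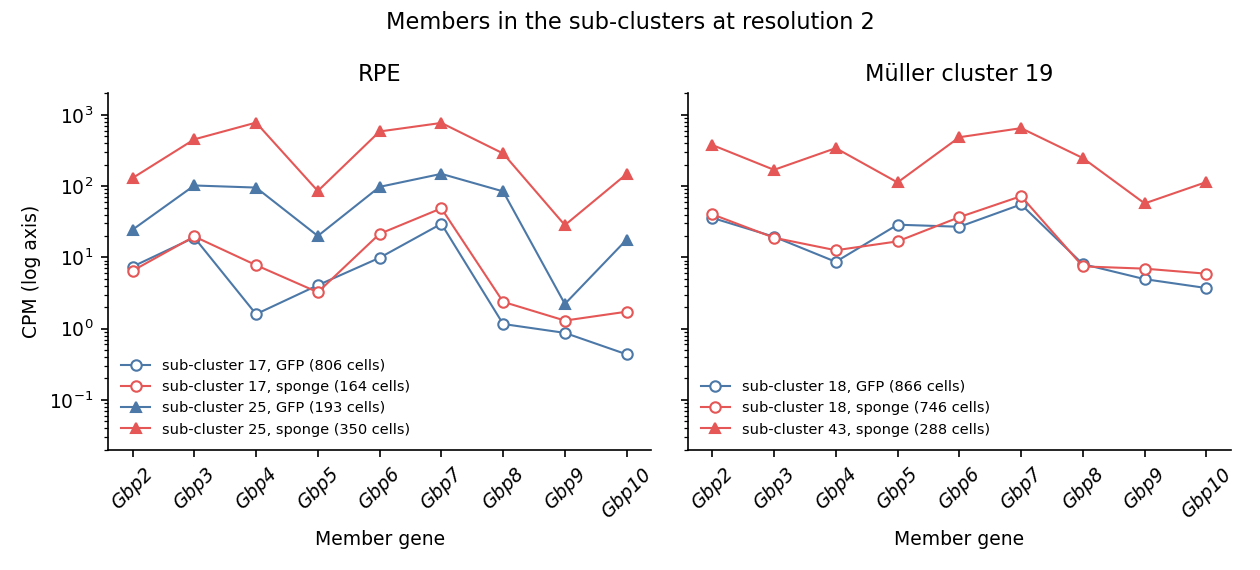
CPM (log axis) of each member in the sub-clusters of RPE and of Müller cluster 19 at resolution 2, by library; the 6 cells labelled GFP of sub-cluster 43 are left out. Sub-cluster 25 lies above sub-cluster 17 in both libraries, at a summed 594 and 3274 CPM against 74.1 and 113 CPM, and sub-cluster 43 reaches 2562 CPM.

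The eGFP feature was set beside the family in the library labelled sponge. RPE cells with an eGFP UMI numbered 157, with a median of 16896 UMIs, and had a summed Gbp level of 2079 CPM (2030 to 2128). The 357 RPE cells without one, with a median of 2391 UMIs, had 452 CPM (431 to 474). With all cells thinned to 1000 UMIs first, 80 cells with eGFP had 1475 CPM (1221 to 1766) and 426 without had 423 CPM (363 to 489). Cells without eGFP thus stood above the 105 CPM of the library labelled GFP, and without cells that hold eGFP the log2 ratio between the libraries was 2.10 (1.98 to 2.23). In cluster 19 only 44 of 1068 cells held eGFP, with 1566 CPM (1462 to 1675), and the 1024 without had 910 CPM (892 to 928). Sub-cluster 43 had eGFP at 10.7 CPM, against 1414 CPM in RPE sub-cluster 25. RPE sub-cluster 17 of the same library had eGFP at 265 CPM with a summed Gbp level of only 113 CPM. How far the split of RPE cells by eGFP follows these sub-clusters was not tested.

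The wider interferon pathway was read from lists chosen with earlier results known. Beside their counts, 2.25% of all genes measured in RPE and 3.58% in cluster 19 were at least 2-fold higher. Of the 12 interferon ligands, Ifng, the gene for interferon-gamma, was counted mainly in T and NK cells, where the library labelled GFP had 15 UMIs in 12 of 186 cells (6.45%, 3.38 to 11.0) and the library labelled sponge 77 UMIs in 17 of 92 cells (18.5%, 11.1 to 27.9). That was 29.0 CPM (16.2 to 47.8) and 141 CPM (111 to 176), at median depths of 2467.5 and 4988.5 UMIs. Over all kept cells there were 27 and 90 Ifng UMIs. RPE had 1 in each library, and cluster 19 had 0 of 917 and 0 of 1068 cells, which allows up to 0.327% and 0.281% of cells with a UMI of Ifng, a limit on detection at this depth and not on expression. No ligand reached 20 UMIs in RPE, cluster 19 or the microglia and macrophages.

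Of the receptors, 0 of 5 measured in RPE were at least 2-fold higher, and 4 were above 0. Ifnar2, the most counted of them, went from 40.6 to 60.2 CPM, a log2 ratio of 0.57 (0.35 to 0.78). Ifngr1 was at 11.8 and 15.02 CPM and Ifngr2 at 12.2 and 15.7 CPM, the chains of the interferon-gamma receptor, and the intervals of both ratios included 0. Of 18 kinases, STATs, IRFs and inhibitors in RPE, 7 were at least 2-fold higher and 0 lower. Among the 7 was Irf1, from 27.2 to 67.2 CPM, a log2 ratio of 1.30 (1.07 to 1.55). Irf8 (2.83), Usp18 (2.04), Ciita (2.04), Nlrc5 (1.52) and Batf2 (2.83, on 4 and 29 UMIs) were also among them. Stat3, Jak1 and Irf2, well counted members of that list, were not, with log2 ratios of -0.23, -0.25 and -0.30. In cluster 19, 8 of 18 were at least 2-fold higher. Irf1 there went from 304 to 453 CPM and Stat3 from 488 to 498 CPM.

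The immunity-related GTPases, which act with the guanylate-binding proteins on vacuoles, showed the same direction as the members. In RPE 7 of 7 measured were at least 2-fold higher, with a median log2 ratio of 3.56. Iigp1 went from 50.1 to 741 CPM, Igtp from 11.4 to 199, Irgm1 from 15.01 to 178 and Irgm2 from 5.69 to 49.3. The gene models of Igtp and Irgm2 overlap on the same strand, so their reads may not be told apart. In cluster 19, 7 of 7 were at least 2-fold higher with a median of 3.83, and Iigp1 went from 12.3 to 256 CPM. In the microglia and macrophages 5 of 6 were, with a median of 1.22, where 4.76% of genes were, and in endothelial cells 0 of 8, where 4.49% of genes were.

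Of the type I interferon-stimulated genes, 12 of 15 measured in RPE were at least 2-fold higher, with a median log2 ratio of 1.57, and 6 of 16 in cluster 19, with a median of 0.83. Bst2, the antiviral tether, went from 35.5 to 442 CPM in RPE and from 30.2 to 119 CPM in cluster 19. Ifit3 went from 8.80 to 65.7 CPM in RPE. In cluster 19 Isg15 went from 63.0 to 103 CPM and Oasl2 from 40.1 to 82.9 CPM. Inflammasome and pyroptosis genes went otherwise in RPE, with 1 of 6 measured at least 2-fold higher, Pycard, from 8.54 to 22.0 CPM, and 4 at least 2-fold lower. Il18 was at 37.3 and 53.6 CPM, Casp4 at 4.79 and 2.11 CPM and Aim2 at 5.44 and 0.982 CPM. The 4 lower genes had few UMIs. Casp4 had 37 and 15, Aim2 42 and 7, Il1b 31 and 6 and Nlrp3 17 and 3. Ptprc was also lower in RPE, at 4.53 and 1.26 CPM, and any link to these genes was not tested. Some genes of the list were at least 2-fold lower in cluster 19, cluster 15 and fibroblasts too. The background in RPE was 16.5% of genes at least 2-fold lower.

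Among 17191 genes compared, those most like the summed family level over the 30 class and library sums (Pearson correlation of log2 CPM + 1) were Igtp at 0.919, Irgm1 at 0.916, Ifit3 at 0.899, Bst2 at 0.893 and Gbp2b at 0.883. Olfr56 (0.881), Irgm2 (0.881), Rtp4 (0.874), Eif2ak2 (0.871) and Xaf1 (0.868) completed the 10. The gene model of Olfr56 overlaps that of the GTPase Ifi47 on the same strand of chromosome 11, so their reads may not be told apart. The same holds for Igtp and Irgm2, which also overlap on that strand. The members' own correlations with their sum, of which each is a part, ran from 0.774 for Gbp8 to 0.960 for Gbp7. The 30 sums share 2 libraries and their depths, so these values describe the libraries only.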

How the data were processed

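Gene-by-cell matrices from 10x Genomics 3' libraries were used, 1 library per group. Cell Ranger 7.0.0 and mm10 are named in the submitters' processing notes. The values are UMI counts as deposited, without normalization, and an eGFP feature is included. Cell calling and the treatment of intronic reads are not given in the sources used here.

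Barcodes under 300 genes or 500 UMIs, or above 25% mitochondrial UMIs, were dropped (176 in the library labelled GFP, 67 in the library labelled sponge). Scrublet, as built into scanpy 1.11.5, called 0 doublets, so it had not worked and none were removed. Cells were clustered together on 2000 variable genes without the members and the interferon lists, 30 principal components, 15 neighbours and Leiden resolution 1. Clusters were named from marker lists with a rule chosen once their genes had been seen, which asked for at least 3 markers 2-fold over the median cluster, no unrelated class scoring above 0.5 of the best, and no other class leading the 10 most enriched genes. Melanocytes join 2 clusters, and clusters 15, 18 and 19 were kept by number.

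Each class was summed within its library and scaled to CPM, with exact Poisson intervals. Log2 ratios divide the level labelled sponge by the level labelled GFP after adding 0.5 to both, with the exact binomial interval of the pair of counts. Shares carry exact Clopper-Pearson intervals, and a share of 0 is bounded by 3 cells. Genes with at least 20 UMIs over both libraries count as measured in a class. With 1 library per group no test was run and no p-value is given. The ratio and its interval were tested on simulated data, with 200 changed genes in each of 3 classes. The simulated class sums were Poisson counts, as the intervals assume. This checked the calculation and not whether the intervals hold for these cells. Named genes were all 9 members and, per list, up to 4 with the most UMIs in the class. Further genes were named where a count of 5 or fewer was named or a gene bore on a result. The latter were Gbp2b, Ifng, the interferon-gamma receptor chains, Irf1 and further genes of its list at least 2-fold higher in RPE. All further genes were chosen after their values were seen. Values of 1 listed gene are not reported here. Members and lists were chosen with earlier results of these data known. Promoter and microRNA sequences came from RefSeq tables (GRCm38.p6) and gene models from the mm10 annotation supplied with them.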

Additional observations from a re-analysis of the deposited data

Results flagged for a closer look

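The summed Gbp level pointed in opposite directions in RPE and ocular surface epithelium. The log2 ratio, library labelled sponge over library labelled GFP, was 3.54 (3.44 to 3.65) in RPE and -0.29 (-0.40 to -0.17) in ocular surface epithelium, which changed to 0.03 under median-of-ratios scaling. With 1 library per group the difference between the classes was not tested.

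Gbp5 also pointed in opposite directions, with a log2 ratio of 2.62 (2.14 to 3.16) in RPE and -1.05 (-1.85 to -0.31) in bipolar cells, on 44 and 24 UMIs. This difference was not tested either.

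Cluster 14, left out of the classes because it was led by haemoglobin genes and held markers of many classes, held 788 cells labelled GFP against 4916 labelled sponge, with medians of 1443 and 1216 UMIs. Its summed Gbp level was 62.6 CPM (49.0 to 78.9) and 214 CPM (203 to 225), with 72 and 1422 family UMIs.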

How the results depend on the processing

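The log2 ratio of the summed level kept its sign in RPE, microglia and macrophages, and endothelial cells under every alternative run. In RPE, 3.54 became 3.66 with median-of-ratios scaling, 2.78 with cells weighted equally and 2.87 with cells thinned to 1000 UMIs. Of alternatives chosen after seeing the data, it became 3.24 without the 10% of cells with the most UMIs, 2.10 without cells holding eGFP and 3.42 without Gbp6 and Gbp10. In microglia and macrophages, 0.97 became 0.70 with equal weights, 0.53 when thinned and 0.73 without the deepest cells. In endothelial cells, 0.50 became 0.63 when thinned, 0.70 with cells assigned by marker score and 0.66 without the deepest cells. The RPE share with at least 2 members, 1.27% and 8.89%, was 11.0% and 27.4% unthinned, and 11.9% under the stricter filter in the library labelled sponge. Resolution 2, the members kept for clustering, and leaving out the 10% highest doublet scores moved none of these beyond counting error. These are values of each class as a whole. Within RPE, each sub-cluster at resolution 2 differed less between the libraries than the class did. Sub-cluster 17 had 74.1 and 113 CPM on 806 and 164 cells, and sub-cluster 25 had 594 and 3274 CPM on 193 and 350 cells. The RPE ratio thus also depends on the mix of sub-clusters. Of the 120 values of single members, 118 moved by less than counting error under median-of-ratios scaling, and Gbp2 and Gbp7 in ocular surface epithelium became -0.06 and -0.18. With 1 added to both counts, each of the 120 moved by less than that. Without the minimum of 20 UMIs, 15 further values on few counts would be added. No paired analysis was possible because each group is 1 library whose cells are not assigned to mice. Depth limits Gbp9 and Gbp10 in classes with few UMIs. The ratio in cluster 19 depends on sub-cluster 43, since sub-cluster 18, with most of its other cells at resolution 2, had 192 and 218 CPM. The cause of these shifts was not tested.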

Other observations

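Pericytes and smooth muscle, the mural cells of vessels, differed in degree from the endothelium beside them in the immunity-related GTPases. Of 5 measured in pericytes and smooth muscle, 5 were at least 2-fold higher in the library labelled sponge, where 6.47% of genes there were, with a median log2 ratio of 1.98. Endothelial cells had 0 of 8, where 4.49% of genes were, though 7 of 8 were above 0, with a median of 0.66. Fibroblasts had 6 of 7 (median 1.43), where 6.25% of genes were, and melanocytes 6 of 7 (median 1.78), where 3.87% were. Iigp1 in pericytes and smooth muscle went from 40.2 CPM (31.7 to 50.3) to 174 CPM (151 to 199) and Ifi47 from 6.34 to 29.8 CPM. Their members differed less, from 94.1 to 134 CPM in sum, with 0 of 6 measured at 2-fold. The difference between the classes was not tested.

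Gbp2b, the family member next to Gbp2, went down in cluster 15 from the library labelled GFP to that labelled sponge, while the sum of the 9 was higher. It was at 308 and 261 CPM, a log2 ratio of -0.24 (-0.31 to -0.16). In ocular surface epithelium, where the sum was lower too under scaling by the total, Gbp2b was at 117 and 58.9 CPM. Its log2 ratio was -0.98 (-1.13 to -0.84) against -0.29 for the sum and a median of -0.36 over all genes measured there. Under median-of-ratios scaling the sum became 0.03. When the members and the interferon lists were kept for clustering, a cluster with all 12 Müller glia markers at 2-fold formed from 13 cells of the library labelled GFP and 337 of the library labelled sponge, with 2450 CPM of the family over both. It was led by Ly6a, Iigp1, Igtp and the class II gene H2-Ab1.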
